A study of Oncorhynchus mykiss with 12 samples.

Results

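The ion and water transport genes of trout dorsal skin were taken from the RNA-Seq table by gene symbol. Of 42290 entries, 136 had a symbol that begins with the name of an aquaporin (aqp), a sodium pump subunit (atp1a or atp1b), an SLC12 cotransporter, an SLC9 exchanger, cftr or a V-ATPase subunit (atp6v). They were 28 aquaporins, 22 sodium pump subunits, 22 SLC12 cotransporters, 12 SLC9 exchangers, 9 SLC9A3 regulators, 2 cftr entries and 41 V-ATPase entries. Among the V-ATPase entries, ATp6v1fnb (gene 118938891) is a neighbour of the subunit F gene and not a subunit. It was listed at 0 in every library. The SLC9A3 regulators (NHERF proteins) are scaffolds that hold exchangers at the membrane and carry no ions themselves, so they are described apart. A further 29 entries had a description of a related protein but another symbol and are not members. The study compared dorsal skin of yellow mutant rainbow trout (Oncorhynchus mykiss), 3 RNA-Seq samples, with that of wild-type rainbow trout, 3 RNA-Seq samples. Fish of both colour forms belong to the F1 generation of a cross between wild-type fathers and yellow mutant mothers, per the series text. The sources used here name neither the allele behind the yellow colour nor the age of the fish or the salinity of the water. The labels also do not say whether a sample is 1 fish or a pool, so p-values measure only the spread between these samples.

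Fish skin separates body fluid from water, and its outer layer is made of living cells. The sodium pump sets up the sodium and potassium gradients of every animal cell. Cotransporters and exchangers use these gradients to move chloride, potassium and protons, and aquaporins let water, and in some cases glycerol, cross the membrane. The V-ATPase is a proton pump of many subunits that acidifies lysosomes, endosomes and pigment organelles. In freshwater fish it also sits in the outer membrane of ionocytes, the specialised cells of gill and embryonic skin that take up or secrete salt. Chloride secretion in saltwater fish runs through the CFTR channel.

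Values are FPKM, that is, fragments scaled to transcript length and to sequenced fragments, so levels of different genes can be set side by side. The FPKM columns summed to 427396, 428088 and 428561 in yellow mutant libraries, against 423124, 396278 and 410125 in wild-type libraries. Every yellow mutant total thus lay above every wild-type total. Sums over genes below were not divided by these totals. Relative depth, read from the steps of low values and set to 1 in wild-type replicate 1, ran from 0.582 in yellow mutant replicate 2 to 1.01 in yellow mutant replicate 1. The absolute depth is unknown. The tissue label was set against keratinocyte markers, of which 19 of 19 entries were above 0 in the table. Of all 42290 entries only 3690 were at 0 in every library, so this count does little to identify the tissue. The keratinocyte markers summed to 1418 to 1952 FPKM in yellow mutant skin and 1007 to 1458 FPKM in wild-type skin. Skeletal muscle markers were also abundant and uneven, at 1982 to 4838 FPKM in yellow mutant and 1353 to 3645 FPKM in wild-type libraries.

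Of the 136 members, 84 reached 0.5 FPKM in at least 3 of the 6 libraries and were tested. Of the other 52, 20 were listed at 0 in every library and 32 had low values. The highest mean over all 6 libraries among members left out was 0.586 FPKM, and the lowest among those tested was 0.699 FPKM. In all, 81 members averaged at least 1 FPKM, 20 at least 10 FPKM and 2 at least 100 FPKM. Trout carry many near-identical gene copies from genome duplication. No source says to which copy an ambiguous read was given, so the value of any 1 copy is uncertain.

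The comparison asks whether the skins of the colour forms differ in these genes. No tested member passed the threshold. Of 84 members, 0 were called higher and 0 lower in yellow mutant skin (limma on log2(FPKM + 1), two-sided, Benjamini-Hochberg adjusted over 27268 genes, threshold 0.05). Over all genes tested, 0.033% were called higher and 0% lower. At an unadjusted p under 0.05, 5 members were higher and 4 lower, which is 5.95% and 4.76% of the members, against 3.41% and 2.59% of all genes tested. The smallest adjusted p among the members was 0.617. An FDR under 0.05 was given to 0 members and to 138 of all entries in the authors' deposited table.

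Log2 fold changes of the members ran from -0.61 to 0.51 on the log2(FPKM + 1) scale, on which low genes show less change than they have. Their median was 0.07, against 0.01 over all genes tested. For 81 of 84 members, or 96.4%, the 95% interval of the log2 difference lay between -1 and 1, against 90.2% of all genes tested. The exceptions included SLC12A4 (gene 110526617) and Aqp1 (gene 110530499). Because of the added 1, the same band allows larger FPKM ratios in low genes. Of the members, 54 had a log2 fold change above 0, or 64.3%, against 53% of all genes tested. The members' median was -0.0042 without yellow mutant replicate 1, 0.12 without yellow mutant replicate 2 and 0.11 without wild-type replicate 3. It was 0.13 with relative depth as a covariate, 0.03 with no filter and 0.12 with a filter of 5 FPKM.

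**Figure D1:**
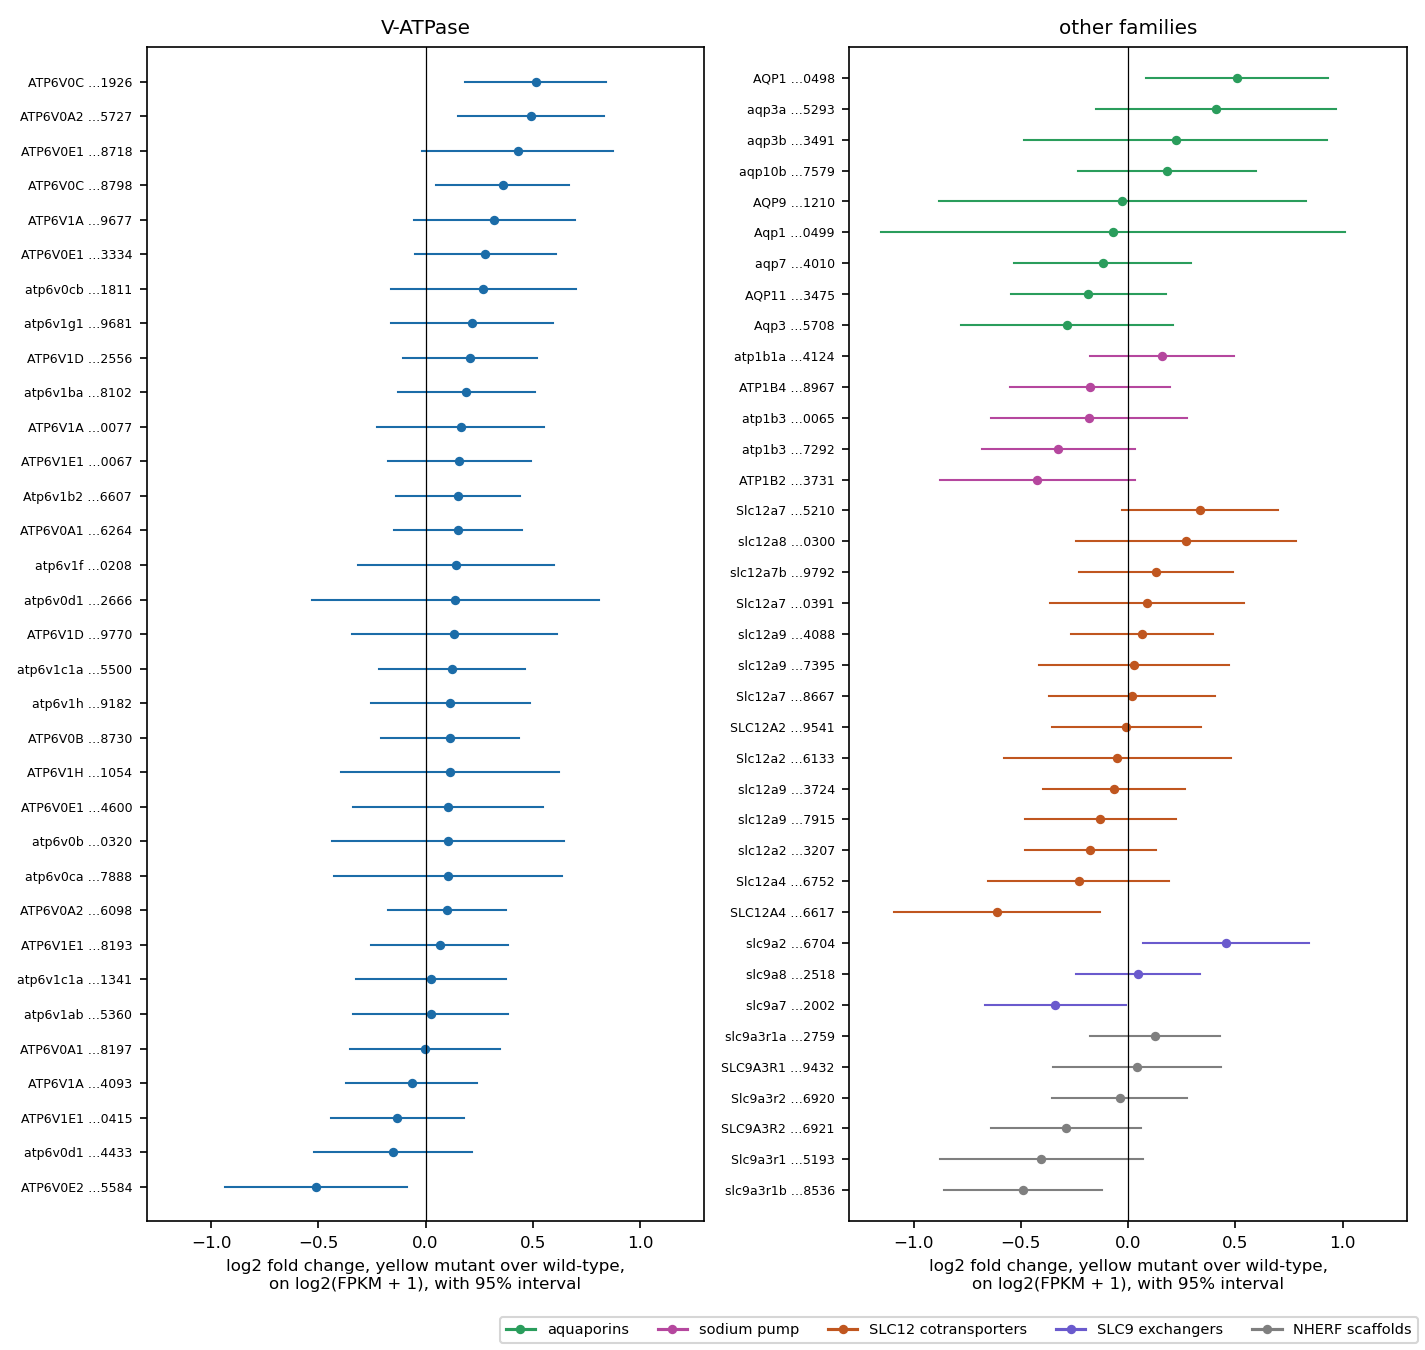
Log2 fold change (x axis, yellow mutant over wild-type, on log2(FPKM + 1)) of 70 of the 84 tested members, 1 row per gene, with points for the limma estimate, lines for the 95% interval and colours for the families. Estimates lie between -0.61 and 0.51, and 28 of the 33 V-ATPase points lie right of 0.

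Aquaporins held the most abundant transcripts of the set, and they came from aquaglyceroporins, the aquaporins that also pass glycerol. AQP9 (gene 110521210), an aquaglyceroporin known in mammals from liver and white blood cells, had 225.8, 545 and 244 FPKM in yellow mutant replicates 1, 2 and 3, against 296, 251 and 427 FPKM in wild-type replicates 1, 2 and 3. It ranked 222 of 42290 entries by mean level. The genotypes overlapped and the highest library was 2.41 times the lowest. The log2 fold change of -0.03 had a 95% interval from -0.88 to 0.83. Next came aqp3b (gene 110523491), a copy of aquaporin 3, the glycerol and water channel of mammalian basal keratinocytes. Its values were 198, 94.0 and 185 FPKM in yellow mutant skin, against 117, 117 and 159 FPKM in wild-type skin. Yellow mutant replicate 2 was thus the highest library for AQP9 and the lowest for aqp3b.

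The other aquaporin 3 copies were less abundant. aqp3a (gene 110525293) had 32.8, 32.0 and 49.2 FPKM in yellow mutant skin, against 21.7, 28.2 and 34.9 FPKM in wild-type skin, a log2 fold change of 0.41 (95% interval from -0.15 to 0.97). It was 0.21 without yellow mutant replicate 3 and 0.24 without wild-type replicate 1. Aqp3 (gene 110535708) had 14.3, 11.8 and 16.9 FPKM in yellow mutant skin, against 14.5, 23.2 and 16.0 FPKM in wild-type skin, with a log2 fold change of -0.28 that was -0.16 when yellow mutant replicate 2 was left out and -0.093 when wild-type replicate 2 was. Neither copy separated the genotypes. Summed, the 3 copies averaged 211 ± 63.7 FPKM in yellow mutant and 177 ± 29.4 FPKM in wild-type skin (SD, n = 3 each). The copy aqp3b held 74.7% of that sum.

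AQP1 (gene 110530498), named aquaporin FA-CHIP in the table, is a water channel found in red cells and vessel walls of mammals. Its values were 72.6, 57.6 and 70.6 FPKM in yellow mutant skin, against 42.6, 53.9 and 43.9 FPKM in wild-type skin. All yellow mutant libraries lay above all wild-type libraries, and the ratio of means was 1.43. The log2 difference of 0.51 (SE 0.18) did not pass (limma, Benjamini-Hochberg adjusted p = 0.766). Another entry described as aquaporin FA-CHIP, AQPA (gene 110508565), is no member and went the other way. It had 1.436, 0.499 and 1.996 FPKM in yellow mutant skin, against 2.405, 2.156 and 2.388 FPKM in wild-type skin. All its yellow mutant libraries lay below all wild-type libraries. Of 24 red cell markers tested, 22 had a log2 fold change under 0, led by hbb1 (gene 100136207) at -0.62 and slc4a1 (gene 100136769) at -0.36. None of the 24 passed, and the list's sum was 875 to 1468 FPKM in yellow mutant and 720 to 1966 FPKM in wild-type skin. All 10 endothelial markers tested had a log2 fold change under 0, led by TIE1 (gene 110521820) at -0.50 and CDH5 (gene 110526277) at -0.91, and 0 passed. Of the 10, 3 were lower at an unadjusted p under 0.05 (limma), against 2.59% of all genes tested. Over all genes tested, 53% had a log2 fold change above 0. The endothelial markers summed to 43.1 to 79.2 FPKM in yellow mutant and 63.6 to 102.5 FPKM in wild-type skin. The part of either cell type in the AQP1 difference was not tested. In bulk skin, more cells of a type and more RNA per cell cannot be told apart.

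The second Aqp1 copy (gene 110530499) varied most of all tested members, from 0.909 FPKM in wild-type replicate 3 to 4.54 FPKM in yellow mutant replicate 1. Its means were 2.46 ± 1.80 FPKM in yellow mutant and 2.62 ± 1.596 FPKM in wild-type skin (SD, n = 3 each). AQP11 (gene 110533475), an aquaporin of intracellular membranes, averaged 1.93 ± 0.20 FPKM in yellow mutant and 2.36 ± 0.559 FPKM in wild-type skin. The aquaglyceroporins aqp7 (gene 110494010) and aqp10b (gene 110517579) stayed near 1 FPKM, at 1.12 and 1.12 FPKM in yellow mutant and 1.29 and 0.843 FPKM in wild-type skin. Their copy aqp10a (gene 110536037) did not pass the filter, and only wild-type replicate 1, at 2.55 FPKM, exceeded 0.5 FPKM in it. The authors' deposited table gives it a log2 fold change of -2.69 with an FDR of 0.417. Of the 28 aquaporin entries, 13 were listed at 0 in all libraries. They were 7 of 8 aqp8 entries, both aqp12 entries, 2 of 4 aqp4 entries, an AQP9 entry and the AQP2 entry.

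**Figure D2:**
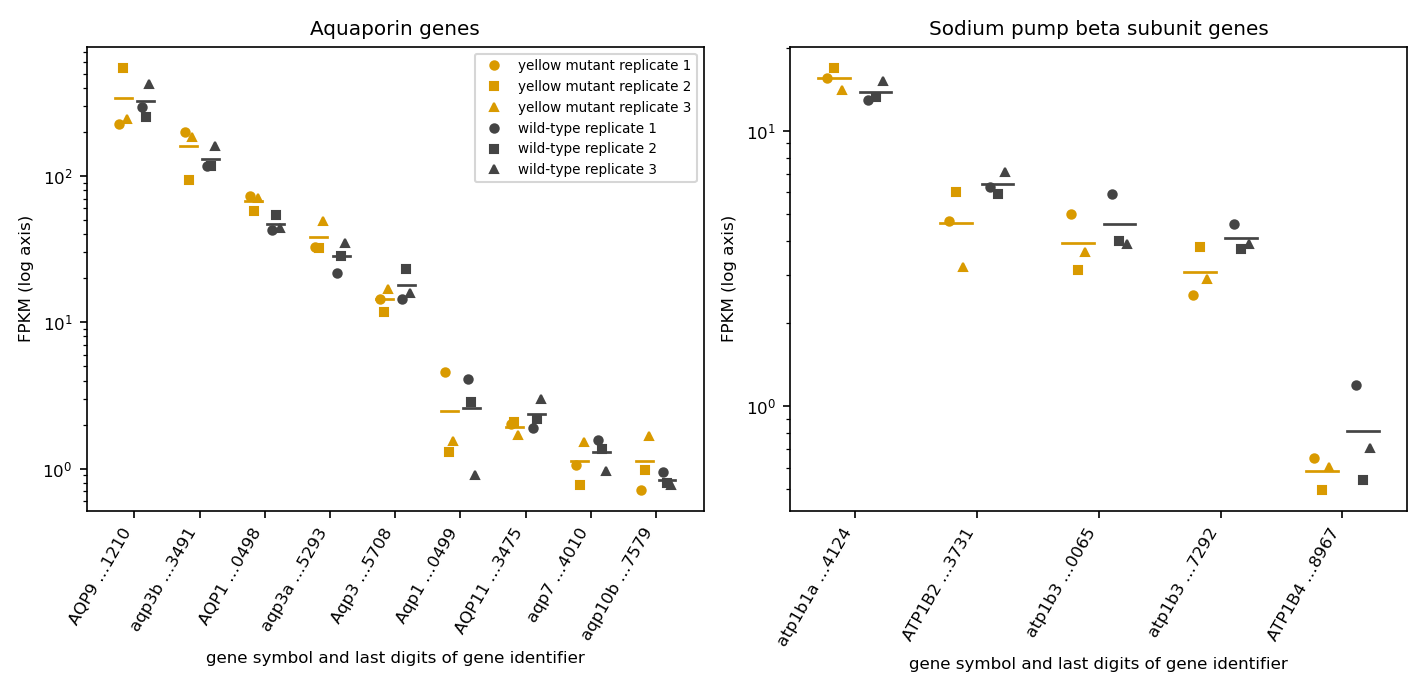
FPKM on a log axis of the 9 tested aquaporin genes (left) and the 5 tested beta subunit genes of the sodium pump (right), ordered by mean level, with 1 marker per library and a line at each genotype's mean. AQP9 and aqp3b stand above the other aquaporins, and in the beta subunit panel no gene separates the genotypes.

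The sodium pump is a pair of an alpha subunit, which binds ions and ATP, and a beta subunit, which brings it to the membrane. Of 22 entries, 13 were tested, 8 had a log2 fold change above 0 and 5 below, and 0 had an unadjusted p under 0.05. The median log2 fold change was 0.05. Summed over the family, the level was 127, 111 and 114 FPKM in yellow mutant skin, against 99.8, 102 and 114 FPKM in wild-type skin, so wild-type replicate 3 overlapped with the yellow mutant libraries.

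Among beta subunits, atp1b1a (gene 110524124) was the most abundant member, at 15.6, 16.9 and 14.1 FPKM in yellow mutant skin, against 13.0, 13.3 and 15.2 FPKM in wild-type skin. ATP1B2 (gene 110533731) had 4.70, 6.02 and 3.21 FPKM in yellow mutant skin, against 6.25, 5.92 and 7.09 FPKM in wild-type skin. Its log2 fold change of -0.42 had the smallest p of the family and did not pass (limma, Benjamini-Hochberg adjusted p = 0.858). It was -0.23 without yellow mutant replicate 3. Both tested atp1b3 copies were lower on average, with a summed beta 3 level of 7.27 ± 0.517 FPKM in yellow mutant and 8.94 ± 1.78 FPKM in wild-type skin (SD, n = 3 each). A trout beta gene with another kind of symbol, atnb233 (gene 110523046), is no member. It had 22.2, 26.0 and 21.3 FPKM in yellow mutant skin, against 17.3, 18.8 and 23.3 FPKM in wild-type skin, above atp1b1a in every library.

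SLC12 genes encode cotransporters that move chloride with sodium, potassium or both. Potassium-chloride cotransporters, which let salt out of cells and help them shrink back after swelling, made up most of the family. SLC12A4 (gene 110526617), the widely expressed KCC1, had 11.7, 6.56 and 10.5 FPKM in yellow mutant skin, against 14.0, 14.8 and 15.7 FPKM in wild-type skin. All yellow mutant libraries lay below all wild-type libraries. Its log2 fold change of -0.61 (SE 0.21) did not pass (limma, Benjamini-Hochberg adjusted p = 0.748). It was -0.39 without yellow mutant replicate 2 and -0.36 with relative depth as a covariate. The second copy, Slc12a4 (gene 110506752), had 4.41, 2.49 and 3.93 FPKM in yellow mutant skin, against 4.22, 4.74 and 4.03 FPKM in wild-type skin, and overlapped. Summed, KCC1 averaged 13.2 ± 3.68 FPKM in yellow mutant and 19.1 ± 0.848 FPKM in wild-type skin (SD, n = 3 each).

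KCC4 had 4 tested copies, with log2 fold changes from 0.02 to 0.33. The copy with the largest difference, Slc12a7 (gene 110535210), had 2.75, 2.80 and 4.06 FPKM in yellow mutant skin, against 2.06, 2.44 and 2.43 FPKM in wild-type skin. Its genotypes did not overlap, and its log2 fold change of 0.33, which was 0.19 without yellow mutant replicate 3, did not pass (limma, Benjamini-Hochberg adjusted p = 0.858). The KCC4 sum was 13.3 ± 2.52 FPKM in yellow mutant and 11.7 ± 1.07 FPKM in wild-type skin (SD, n = 3 each). KCC2, in mammals a transporter of neurons, had no copy past the filter.

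NKCC1, the cotransporter that loads cells with sodium, potassium and chloride, came from 3 slc12a2 copies with a sum of 7.48 ± 1.41 FPKM in yellow mutant and 8.24 ± 0.246 FPKM in wild-type skin (SD, n = 3 each). The log2 fold change was -0.18 for slc12a2 (gene 110523207), which held 63.8% of the sum, and near 0 for the other copies, at -0.05 and -0.01. The cotransporters known from kidney were at or near 0. NCC (slc12a3, gene 110494770) was listed at 0 in all libraries, and the NKCC2 entries (SLC12A1) did not exceed 0.06 FPKM. Of the less studied members, slc12a9 (gene 110504088) had 6.30, 4.70 and 5.34 FPKM in yellow mutant skin, against 5.03, 5.66 and 4.75 FPKM in wild-type skin. slc12a8 (gene 110520300), a transporter with an unsettled substrate, varied from 0.434 to 1.65 FPKM within wild-type skin alone.

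SLC9 genes encode sodium-proton exchangers, some at the cell surface and some in organelles. slc9a8 (gene 110492518), a Golgi form, averaged 5.03 ± 0.327 FPKM in yellow mutant and 4.85 ± 0.433 FPKM in wild-type skin (SD, n = 3 each). Another organelle form, slc9a7 (gene 110532002), had 0.985, 1.06 and 0.689 FPKM in yellow mutant skin, against 1.25, 1.38 and 1.62 FPKM in wild-type skin. All its yellow mutant libraries lay below all wild-type libraries, and its log2 fold change of -0.34 did not pass (limma, Benjamini-Hochberg adjusted p = 0.827).

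At the cell surface, slc9a2 (gene 100136704), NHE2, an exchanger of the outer membrane of epithelia, had 2.16, 1.88 and 2.69 FPKM in yellow mutant skin, against 1.07, 1.79 and 1.25 FPKM in wild-type skin. Its genotypes did not overlap, the ratio of means was 1.63, and the log2 fold change of 0.45 did not pass (limma, Benjamini-Hochberg adjusted p = 0.769). The gap between its lowest yellow mutant and highest wild-type value, 1.88 against 1.79 FPKM, was narrow. NHE3, the main sodium-taking exchanger of fish ionocytes, was listed at 0 in all libraries (Slc9a3, gene 110496081). A trout NHE3 entry with another symbol, nhe3 (gene 100136705), was at 0 in yellow mutant skin and at most 0.078 FPKM in wild-type skin.

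Of the 9 NHERF scaffold entries 6 were tested, 2 with a log2 fold change above 0 and 4 below, with a median of -0.17. slc9a3r1b (gene 110538536), a copy of NHERF1, had 4.73, 3.79 and 4.74 FPKM in yellow mutant skin, against 6.25, 8.04 and 5.67 FPKM in wild-type skin. All yellow mutant libraries lay below all wild-type libraries, and the log2 fold change of -0.49 (SE 0.16) did not pass (limma, Benjamini-Hochberg adjusted p = 0.733). Other NHERF1 copies overlapped. Slc9a3r1 (gene 110485193) was at 3.62 ± 0.976 FPKM in yellow mutant and 5.11 ± 1.26 FPKM in wild-type skin, whereas SLC9A3R1 (gene 110499432) was at 5.04 ± 0.813 and slc9a3r1a (gene 110502759) at 2.07 ± 0.225 FPKM in yellow mutant skin, against 4.89 ± 1.01 and 1.81 ± 0.184 FPKM in wild-type skin (SD, n = 3 each).

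Of the genes that define ionocytes, some were low or not seen and others passed the filter. cftr (gene 110499460) had 0.141, 0.016 and 0.105 FPKM in yellow mutant skin, against 0.095, 0.101 and 0.189 FPKM in wild-type skin. The other cftr entry (gene 110532369) was at 0.012 FPKM in yellow mutant replicate 3 and at 0 in the remaining libraries. Of 21 ionocyte marker entries 7 passed the filter and 5 were listed at 0 in every library, among them Trpv6 (gene 110520909), a calcium channel, and slc26a4, an anion exchanger. Those that passed include slc4a1 (gene 100136769), which is also in the red cell list, so the ionocyte sum is not specific to ionocytes. The ionocyte transcription factor genes foxi3a and foxi3b did not exceed 0.195 FPKM. The marker list also names the forkhead gene foxi1, and it was expressed. The entry foxi1c (gene 110498422) had 4.16, 4.11 and 1.63 FPKM in yellow mutant skin, against 3.88, 4.95 and 3.70 FPKM in wild-type skin. The markers summed to 13.0 to 22.0 FPKM in yellow mutant and 11.9 to 19.1 FPKM in wild-type skin, and the genotypes overlapped. The smallest p-values of the list belonged to 2 rhcg genes that code for ammonia channels.

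The V-ATPase was the family with the most even direction. Of 41 entries 33 were tested, and 28 of the 33 had a log2 fold change above 0, or 84.8%, against 53% of all genes tested. The median was 0.13, against 0.01 over all genes tested. Of the 33, 0 passed (limma, Benjamini-Hochberg adjusted p at least 0.617). At an unadjusted p under 0.05, 3 were higher and 1 lower, or 9.09% and 3.03%, against 3.41% and 2.59% of all genes tested. The 33 genes were measured in the same libraries, so the count is a description and not 33 independent results. Summed over all copies, the level was 308, 272 and 277 FPKM in yellow mutant skin, against 242, 252 and 249 FPKM in wild-type skin. The genotypes did not overlap, and the ratio of means was 1.153. The totals of the FPKM columns also lay higher in every yellow mutant library, and these sums were not divided by them. After median-of-ratios scaling the sums were 298, 272 and 277 FPKM in yellow mutant skin, against 250.3, 251 and 244 FPKM in wild-type skin. Without yellow mutant replicate 1, 21 of the 33 were above 0, at a median of 0.08, and without yellow mutant replicate 2 the median was 0.21. With relative depth as a covariate it was 0.23.

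**Figure D3:**
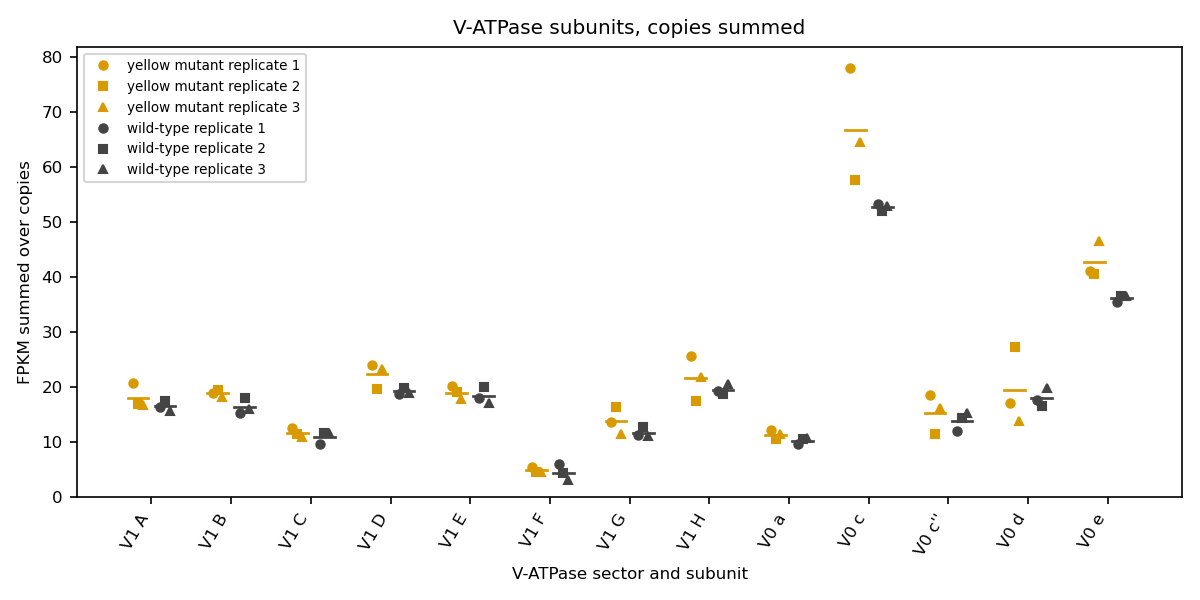
FPKM summed over the copies of each V-ATPase subunit (x axis, cytosolic sector V1 then membrane sector V0), with 1 marker per library and a line at each genotype's mean. The c and e subunits lie highest, and for both all yellow mutant libraries lie above all wild-type libraries.

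By subunit, the proton-carrying ring subunit c was the most abundant, with 78.0, 57.6 and 64.6 FPKM in yellow mutant skin, against 53.2, 51.9 and 52.9 FPKM in wild-type skin. In the complex this subunit is present in several copies. All 4 genes for it had a log2 fold change above 0. ATP6V0C (gene 110521926) had 16.0, 14.5 and 12.7 FPKM in yellow mutant skin, against 9.74, 9.39 and 10.1 FPKM in wild-type skin, a log2 fold change of 0.51 (SE 0.14). It had the smallest p of all members and did not pass (limma, Benjamini-Hochberg adjusted p = 0.617). Its paralog ATP6V0C (gene 110498798) had 10.3, 11.0 and 9.15 FPKM in yellow mutant skin, against 7.92, 7.97 and 7.14 FPKM in wild-type skin, a log2 fold change of 0.36 (limma, Benjamini-Hochberg adjusted p = 0.769). In both, the genotypes did not overlap. The most abundant ring gene, atp6v0cb (gene 100301811), had 36.8, 24.4 and 29.9 FPKM in yellow mutant skin, against 25.1, 23.2 and 25.8 FPKM in wild-type skin, and overlapped. The fourth, atp6v0ca (gene 110537888), averaged 11.8 ± 3.76 FPKM in yellow mutant and 10.6 ± 0.749 FPKM in wild-type skin. Subunit c'' of the same sector summed to 18.5, 11.4 and 16.1 FPKM in yellow mutant skin, against 11.9, 14.3 and 15.3 FPKM in wild-type skin, and overlapped. The sums of the membrane subunits a and d overlapped as well.

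Subunit e, a small membrane protein, summed to 41.0, 40.6 and 46.6 FPKM in yellow mutant skin, against 35.4, 36.4 and 36.5 FPKM in wild-type skin. Its genes differed in direction. ATP6V0E1 (gene 118938718) had 12.8, 20.6 and 18.7 FPKM in yellow mutant skin, against 12.9, 12.5 and 11.9 FPKM in wild-type skin, and ATP6V0E1 (gene 110504600) had 25.6, 16.8 and 25.3 FPKM in yellow mutant skin, against 20.3, 20.4 and 21.0 FPKM in wild-type skin. Among yellow mutant libraries, replicate 1 was the lowest for the first gene and the highest for the second, and replicate 2 the reverse. ATP6V0E2 (gene 110485584) went the other way, with 0.703, 1.26 and 1.04 FPKM in yellow mutant skin, against 1.295, 2.05 and 2.24 FPKM in wild-type skin. Its log2 fold change of -0.51 did not pass (limma, Benjamini-Hochberg adjusted p = 0.766).

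Subunit a, which carries protons through the membrane and sets where the pump goes, had 4 of 9 entries past the filter. ATP6V0A2 (gene 110525727) had 1.78, 1.43 and 1.37 FPKM in yellow mutant skin, against 1.02, 0.59 and 0.79 FPKM in wild-type skin, a ratio of means of 1.91 at a log2 fold change of 0.49 (limma, Benjamini-Hochberg adjusted p = 0.688). Another ATP6V0A2 entry (gene 110509909), under the filter, went the other way. It had 0.128, 0.067 and 0.144 FPKM in yellow mutant skin, against 0.233, 0.398 and 0.287 FPKM in wild-type skin. The most abundant of the 9 entries, ATP6V0A2 (gene 110536098), averaged 4.08 ± 0.14 FPKM in yellow mutant and 3.75 ± 0.25 FPKM in wild-type skin (SD, n = 3 each). A subunit a3 gene with another kind of symbol, TCIRG1 (gene 110504437), is no member and had 6.22, 5.97 and 4.95 FPKM in yellow mutant skin, against 5.14, 4.13 and 6.12 FPKM in wild-type skin. Subunit d (atp6v0d1, gene 110512666) was uneven, with 11.9, 21.7 and 8.76 FPKM in yellow mutant skin, against 12.7, 10.9 and 12.1 FPKM in wild-type skin.

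In the cytosolic sector, the subunits A, which is catalytic, and B, which also binds nucleotide, summed to 18.1 ± 2.31 and 18.8 ± 0.635 FPKM in yellow mutant skin, against 16.5 ± 0.917 and 16.4 ± 1.45 FPKM in wild-type skin (SD, n = 3 each). ATP6V1D (gene 110522556), part of the central stalk, had 15.4, 15.1 and 17.1 FPKM in yellow mutant skin, against 13.4, 14.0 and 13.4 FPKM in wild-type skin, with no overlap and a log2 fold change of 0.21. ATP6V1A (gene 110489677) also had all yellow mutant libraries above all wild-type libraries, at a log2 fold change of 0.32. So did ATP6V0E1 (gene 110533334) of the membrane sector, at 0.28. No gene of the cytosolic sector had an unadjusted p under 0.05 (limma). The sums of subunits A, C, D, E, F, G and H overlapped. Those of subunit B did not, but only narrowly, with a lowest yellow mutant sum of 18.106 FPKM and a highest wild-type sum of 18.025 FPKM. Subunit F, with 1 copy, was the lowest, at 4.84 ± 0.456 FPKM in yellow mutant and 4.40 ± 1.41 FPKM in wild-type skin. Whole sectors summed to 141, 124 and 124 FPKM for V1 and 167, 147 and 152 FPKM for V0 in yellow mutant skin, against 114, 122 and 114 FPKM for V1 and 128, 130 and 135 FPKM for V0 in wild-type skin.

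V-ATPase also acidifies melanosomes and lysosomes, and markers of both were measured. Melanophore markers summed to 627, 449 and 645 FPKM in yellow mutant skin, against 388, 375 and 401 FPKM in wild-type skin. Of 13 tested, 11 had a log2 fold change above 0, 8 of them with an unadjusted p under 0.05, at a median of 0.72, and 0 passed. Over all genes tested, 53% were above 0 and 3.41% were higher at an unadjusted p under 0.05. The smallest p-values belonged to tyr (gene 100135828) and DCT (gene 110501902), enzymes of melanin synthesis, at log2 fold changes of 1.09 and 1.01. Genes of lysosomes and their transcription factors summed to 547, 463 and 512 FPKM in yellow mutant skin, against 436, 444 and 440 FPKM in wild-type skin. Of 35 tested, 21 were above 0 at a median of 0.07, 4 were higher at an unadjusted p under 0.05 (limma), and 0 passed. The transcription factor genes mitfa (gene 110494592) and MITF (gene 110527878) led at log2 fold changes of 0.89 and 0.74. With such genes in it, the list is not specific to lysosomes. The part of melanophores in the mitfa and MITF values was not tested. In the sums of both lists yellow mutant libraries lay above wild-type libraries, as in the V-ATPase sum. The sums of the macrophage markers and of the WNK kinase list, both described below, separated in the same way. Of the 19 lists, all others had sums that overlapped between the genotypes. Accessory and assembly genes of the V-ATPase were among these, at 155 to 196 FPKM in yellow mutant and 164 to 186 FPKM in wild-type skin. The part of any of these lists in the V-ATPase values was not tested.

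Across the whole set, 9 tested members had all yellow mutant libraries above all wild-type libraries and 5 had them below, or 10.7% and 5.95%, against 6.07% and 4.92% of all genes tested. Of these 14, 9 also had an unadjusted p under 0.05. They were ATP6V0C (genes 110521926 and 110498798), ATP6V0A2, AQP1 and slc9a2 above, and SLC12A4, slc9a3r1b, slc9a7 and ATP6V0E2 below.

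**Figure D4:**
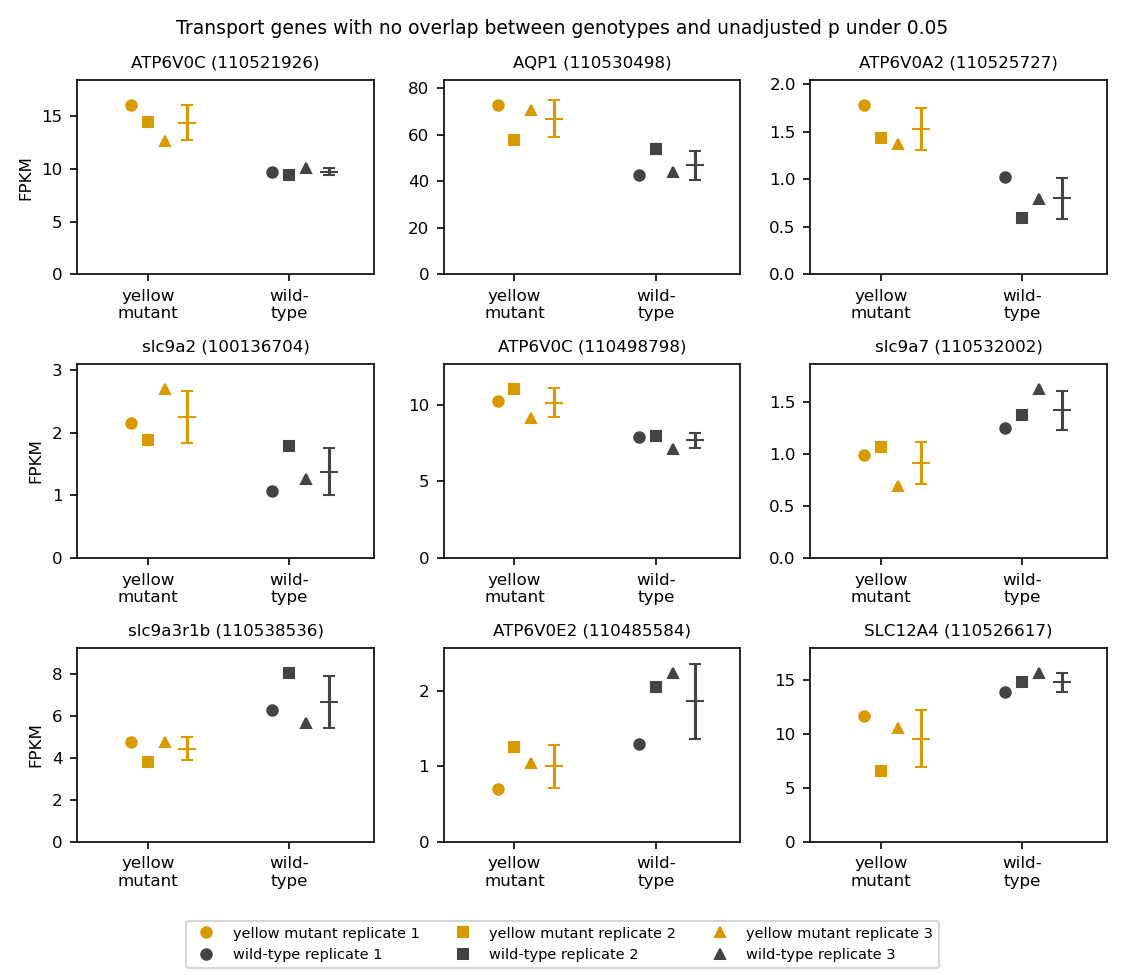
FPKM by library of the 9 members with no overlap between genotypes and an unadjusted p under 0.05, with yellow mutant left of wild-type in each panel, 1 marker per library, and a bar for the mean ± SD (n = 3). The lowest yellow mutant value of ATP6V0C (gene 110521926) is 12.7 FPKM and its highest wild-type value 10.1 FPKM, while for slc9a2 these are 1.88 and 1.79 FPKM.

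Libraries differed in how often they held the extreme value. Yellow mutant replicate 1 was the highest of the 6 libraries in 34 of 84 members, or 40.5%, against 20.7% of all genes tested. Within the V-ATPase it was the highest in 19 of 33. Yellow mutant replicate 2, the shallowest library, was the lowest in 27 members, or 32.1%, against 21.1% of all genes tested. Wild-type replicate 1 was the lowest in 22 members, or 26.2%, against 22.9%. The median ratio of highest to lowest library was 1.67 over the members tested and 1.75 over all genes tested.

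Genes that work with these transporters were described in the same fit. Over the 10 partner lists 0 genes passed. WNK kinases, which switch SLC12 cotransporters through the kinases SPAK and OSR1, held the widest difference of these lists. Wnk1 (gene 110490805) had 35.9, 27.9 and 22.7 FPKM in yellow mutant skin, against 13.7, 9.04 and 11.5 FPKM in wild-type skin. All yellow mutant libraries lay above all wild-type libraries, and the log2 fold change of 1.26 (SE 0.22) did not pass (limma, Benjamini-Hochberg adjusted p = 0.231). The other Wnk1 copies had log2 fold changes of 0.13 (gene 110490803), 0.05 (gene 110496855) and 0.00 (gene 110522050). WNK3 (gene 110532715), an entry described as uncharacterized, had the next smallest p, and its yellow mutant mean of 1.89 ± 1.91 FPKM came mostly from replicate 2, at 4.07 FPKM. Of 13 WNK, SPAK and OSR1 genes tested, 10 were above 0, at a median of 0.06. The list summed to 60.7 to 74.0 FPKM in yellow mutant and 47.5 to 52.2 FPKM in wild-type skin. Most of that difference lay in Wnk1 (gene 110490805).

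Ammonia channels of the Rh family, which carry nitrogen waste across gill and skin, had 5 of 6 tested genes above 0, at a median of 0.46. Over all genes tested, 53% were above 0. At an unadjusted p under 0.05 (limma), 2 of the 6 were higher, against 3.41% of all genes tested. rhcg (gene 110506587) had 1.58, 3.54 and 2.65 FPKM in yellow mutant skin, against 0.891, 1.36 and 1.32 FPKM in wild-type skin, a log2 fold change of 0.68 (limma, Benjamini-Hochberg adjusted p = 0.733). rhcg (gene 100136259) averaged 1.08 ± 0.431 FPKM in yellow mutant and 0.51 ± 0.214 FPKM in wild-type skin (SD, n = 3 each). FXYD proteins, small regulators of the sodium pump, had 4 of 4 tested genes above 0, at a median of 0.21. FXYD6 (genes 110503567 and 110538497) led them at log2 fold changes of 0.33 and 0.36.

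In each list the genes named as leading have the smallest p-values, which need not be the widest differences. Carbonic anhydrases, which supply protons and bicarbonate, had 3 of 5 tested genes above 0 at a median of 0.00, with CA5B (gene 110512077) at -0.31 and ca1 (gene 100135826) at -0.52 as the smallest p-values. Bicarbonate and anion exchangers had 7 of 15 above 0 at a median of -0.02, led by SLC26A5 (gene 110490616) at 0.33 and slc26a2 (gene 110504790) at -0.29. The widest difference of that list, -0.98 for Slc4a7 (gene 110535510), came with 27.7 FPKM in wild-type replicate 1 and at most 5.49 FPKM in every other library. Chloride and potassium channels had 19 of 39 above 0 at a median of -0.00, led by ano10 (gene 118936508) at 0.74 and ANO8 (gene 110521841) at 0.47. Calcium and magnesium transport genes had 10 of 16 above 0 at a median of 0.09, led by Slc8a1 (gene 110532902) at 0.51 and TRPV4 (gene 110525364) at 0.41. Genes found by the symbols of hormone receptors and related enzymes had 8 of 19 above 0 at a median of -0.10, led by hsd11b1l (gene 110524276) at 1.10 and CALCRL (gene 110532403) at -0.57. Accessory and assembly genes of the V-ATPase had 13 of 29 above 0 at a median of -0.00, led by ccdc115 (gene 110492723) at 0.44 and TM9SF2 (gene 110512784) at -0.52. Apart from the FPKM of Slc4a7, these values are log2 fold changes, and none passed (limma, Benjamini-Hochberg).

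Markers of other skin cells gave 0 calls. Over all genes tested, 53% had a log2 fold change above 0. At an unadjusted p under 0.05 (limma), 4 mucous cell, 3 macrophage, 3 skeletal muscle and 0 keratinocyte markers were higher. In the neuron and Schwann cell list 1 was lower. Over all genes tested, 3.41% were higher and 2.59% lower at that p. Keratinocyte markers had 15 of 15 tested genes above 0 at a median of 0.20, led by krt5 (gene 100136029) and krt8 (gene 110528490) at log2 fold changes of 0.40 and 0.56. Mucous cell markers had 21 of 21 above 0 at a median of 0.40, and summed to 1568 to 1658 FPKM in yellow mutant and 733 to 1879 FPKM in wild-type skin. The smallest p-values belonged to the mucin genes MUC5AC (gene 110501031) and MUC5B (an assembled transcript), at log2 fold changes of 1.11 and 1.20. Macrophage markers had 6 of 9 above 0 at a median of 0.09, and summed to 170 to 200 FPKM in yellow mutant and 137 to 157 FPKM in wild-type skin. The csf1r1 copies (genes 110504828 and 100136949) led them at 0.73 and 0.50. Whether these csf1r1 values came from macrophages or from other cells of the skin was not tested. Neuron and Schwann cell markers had 0 of 5 above 0 at a median of -0.29, with 0 passed. Skeletal muscle markers had 19 of 29 above 0 at a median of 0.06, led by Tnni2 (gene 110526837) and TNNI2 (gene 110492922) at 1.11 each. The part of these cell types in the transporter values was not tested.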

How the data were processed

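Dorsal skin was flash-frozen, RNA was isolated with Trizol and libraries followed Illumina's standard protocol, per the labels. The authors made the FPKM values of 6 libraries (per the file headers). Their deposited log2 fold change is that of the genotype means, and the deposited FDR is a p-value adjusted by the authors with a test that no source names. Bowtie2 2.2.8 and TopHat2 2.1.1 appear per the submitters' processing notes. The genome build was not given in the sources used here, nor was the counting tool. The miRNA table was not used here.

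Members were matched by symbol, and all 136 matched RefSeq gene identifiers of assembly USDA_OmykA_1.1, which gave names only. The members and lists were chosen with earlier results of these data known. Entries with at least 0.5 FPKM in at least 3 libraries were tested with limma 3.58.1 (R 4.3.3, eBayes with trend and robust, pseudocount 1, genotype only) on the whole table. Intervals are 95% limma intervals. The fit was also run on simulated data. The planted log2 shifts there were wider than the log2 fold change of any tested member, so that run does not bear on smaller differences. An exact permutation test of 3 against 3 samples cannot go below p = 0.1 and was not used. Medians and sums over members carry no test. Named genes are the most abundant members per family, the smallest p in each direction, all aqp and cftr copies averaging at least 1 FPKM, members with no overlap and an unadjusted p under 0.05, and the 2 smallest p of each other list. Some members and list genes are not reported here by name, though family counts and sums include them. Other genes named were chosen after their values were seen.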

Additional observations from a re-analysis of the deposited data

How the results depend on the processing

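Under 13 alternatives (pseudocount 0.1, no filter, a filter of 5 FPKM, median-of-ratios scaling, no trend or robust, a replicate block, log2 relative depth as a covariate and 6 fits without 1 library each) 0 members were called in either direction, and the smallest adjusted p was 0.432 to 0.9999 (limma, Benjamini-Hochberg). The members' median log2 fold change was -0.0042 to 0.12 without 1 library. It moved by less than the replicate spread of 0.073 in all alternatives. That spread is larger than the main median of 0.065, so a change of sign can also stay within it. Alternatives for the V-ATPase were added after seeing the data. Its genes above 0 numbered 21 to 29 without 1 library, with medians of 0.08 to 0.21. With the depth covariate its median moved to 0.23, by more than the V-ATPase genes' own replicate spread of 0.0795. Of 24 named genes tested, 19 kept their sign in every alternative that tested them and 5 did not; the filter of 5 FPKM tested 15 of the 24. With the depth covariate Aqp1 (gene 110530499) was at 0.42. Without 1 library, log2 fold changes ran from -0.47 to 0.23 for it, from -0.43 to 0.20 for AQP9, from -0.067 to 0.18 for SLC9A3R1 (gene 110499432), from -0.25 to 0.0014 for aqp7 and from -0.030 to 0.15 for slc12a9 (gene 110504088). Without yellow mutant replicate 1, log2 fold changes were 0.026 for aqp3b, 0.0058 for ATP6V0E1 (gene 110504600) and 0.13 for atp6v0cb, without yellow mutant replicate 2 they were 0.56, 0.29 and 0.41, and AQP11 was at -0.057 without wild-type replicate 3 and -0.29 without wild-type replicate 1. The cause was not tested. Deviations of same-numbered samples of the genotypes correlated at 0.12, -0.21 and 0.16 across genes. Not every sample correlated best with its own number. Deviations from a mean of 3 samples are tied to each other, so they cannot decide whether same-numbered samples share more than a number. With the replicate block the members' median was 0.07, 0 members were called, and 0 of all genes passed, against 9 without the block. This was not particular to the block. Of all genes, 0 also passed with the depth covariate and without yellow mutant replicate 3, wild-type replicate 1 or wild-type replicate 3. Without wild-type replicate 2, 1 passed. Without yellow mutant replicate 1, 10 passed as higher and 2 as lower, and without yellow mutant replicate 2, 10 and 4.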
